A study of Mus musculus with 6 samples.

Results

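Loss of c-myc and N-myc in long-term blood stem cells (LT-HSCs) is the setting in which the transcripts of DNA repair genes were compared. The genes were chosen by symbol, as named members of the Fanconi, Brca, Rad, Xrcc, Ercc, Msh, Mlh, Parp, Lig and Neil families together with Mre11a, Nbn, Atm, Atr, Prkdc, Chek1, Chek2, Blm, Wrn, Ogg1 and Ung. Of 18193 genes measured by a probe set of 1 gene, 63 met this rule, with 143 probe sets between them, and each gene was represented by its probe set with the highest mean over the 6 arrays. LT-HSCs, the bone marrow cells that maintain blood for life, were isolated by the gate Lin-Sca1+CD150+CD48- from mice aged 8 weeks on a mixed background. The double knockout (dKO) mice were MxCre c-myc f2 N-myc f2, and the control mice carried the floxed alleles without MxCre (the label of control replicate 2 spells the second allele M-Myc). Both groups received 2 daily doses of pI-pC, a synthetic double-stranded RNA that switches on the interferon-responsive Mx promoter, and their marrow was taken 3 days after the last dose. There were 3 arrays per group, and 1 array carried RNA pooled from 3 mice (dKO) or 2 mice (control). MxCre acts in every cell that responds to interferon and not in LT-HSCs alone. The recombinase is present in the dKO group only, so its own effects and those of the deletions cannot be told apart. In sorted bulk samples, fewer cells of a type and less RNA per cell cannot be told apart either.

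Cells repair DNA by several routes. Double-strand breaks are found by the Mre11-Rad50-Nbn complex and signalled by the kinases Atm and Atr to the checkpoint kinases. They are then rejoined directly by end joining or copied from the sister chromatid by homologous recombination, which needs a replicated genome. The Fanconi anaemia proteins open crosslinked DNA at stalled forks, and base excision, nucleotide excision and mismatch repair replace damaged or mispaired bases. Quiescent LT-HSCs are known to rely largely on end joining, and inherited loss of Fanconi genes leads to stem cell exhaustion and marrow failure.

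The deleted genes were lower in dKO cells. Myc measured 7.28, 7.77 and 7.24 (log2 RMA values) in the dKO arrays, against 10.40, 10.57 and 10.11 in the control arrays (limma adjusted p = 0.00137). Of the 3 Mycn probe sets, 1 averaged 3.46 ± 0.32 in dKO and 10.81 ± 0.06 in control arrays (SD, n = 3 each). That dKO mean gives only a bound, since the array's 3 negative control probe sets spanned 2.13 to 3.92. The brightest Mycn probe set fell by 1.61 on the log2 scale (adjusted p = 0.00938), and the dimmest differed by -0.08. Of 8 measured LT-HSC markers, Tek, Kit and Hlf fell (log2 differences of -2.25, -0.87 and -1.66), whereas Slamf1, which encodes the CD150 of the gate, had a difference of 0.08 (adjusted p = 0.855). Cd48, whose protein the sort leaves out, rose by 1.16 (adjusted p = 0.0214). By the other marker lists, 1 of 8 macrophage and 3 of 8 megakaryocyte genes rose, 2 of 6 erythroid genes and 1 of 8 megakaryocyte genes fell, and 0 of 7 T and NK, 0 of 6 B and 0 of 9 granulocyte genes passed. Of all 18193 genes, 4.49% were higher and 3.56% lower by the same test. Summed over each list on the linear scale, the megakaryocyte signal was 7184 to 11483 in dKO and 3247 to 3798 in control arrays. The macrophage signal was 1730 to 2057 in dKO and 1757 to 2246 in control arrays, and the erythroid signal 5953 to 6362 in dKO and 7266 to 7721 in control arrays. The granulocyte signal was 368 to 1203 in dKO and 898 to 2616 in control arrays, and that of LT-HSC genes 7172 to 8550 in dKO and 10541 to 11275 in control arrays. The T and NK signal was 227 to 325 in dKO and 219 to 240 in control arrays, and the B signal 301 to 559 in dKO and 344 to 655 in control arrays. Ncr1, Ms4a1, Blnk, Lcn2 and Gp6 lay in the negative control range in both groups. The difference between the 3' and 5' Gapdh control probe sets, which grows as RNA is degraded or shortened, was 2.39 to 2.47 in dKO and 2.12 to 2.36 in control arrays. The part of these markers and of RNA quality in the results below was not tested.

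By the representative probe set of each gene, a pair of repair genes rose in dKO cells and none fell past the threshold, while a dimmer probe set fell for Atr and for Rad50. Parp3, an ADP-ribosyltransferase that answers double-strand breaks and favours end joining, and Rad51c, a protein of homologous recombination, were the higher ones. The threshold was a limma adjusted p of 0.05 over 45037 probe sets. The 2 of 63 called members make 3.17%, against 8.05% of all 18193 genes, of which 4.49% were higher and 3.56% lower. At an unadjusted p under 0.05, 9 members were higher and 9 lower, or 28.6%, against 23.1% of all genes. The 3 dKO values lay wholly above the 3 control values for 9 members and wholly below for 9, or 28.6%, against 30.0% of all genes (15.8% above and 14.2% below). The difference was above 0 for 29 members and below 0 for 34, where 50.7% of all genes had one above 0. The median log2 difference was -0.01 over the 63 members and 0.01 over all genes, with extremes of 1.27 and -1.11 among the members.

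The 95% interval of the difference shows what the arrays could resolve for a given probe set. Of the 61 members without a call, 46 (75.4%) had a representative probe set whose interval lay wholly between -1 and 1 on the log2 scale, that is within 2-fold, where 77.3% of all genes did. Msh4 is among the 46, but its interval bounds nothing, because both its means were no brighter than negative controls. Of the remaining 60 members without a call, 27 had such an interval for each of their probe sets. For the others at least 1 probe set allowed a change of 2-fold, as for Rad50, Parp1 and Brca1. The 15 members whose representative probe set itself allowed it were Atr, Chek2, Rad9a, Rad51b, Rad51d, Rad52, Rad54b, Xrcc3, Fancf, Lig4, Xrcc5, Neil1, Msh3, Mlh3 and Ercc6. The number of arrays, 3 per group, limits this precision.

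**Figure D1:**
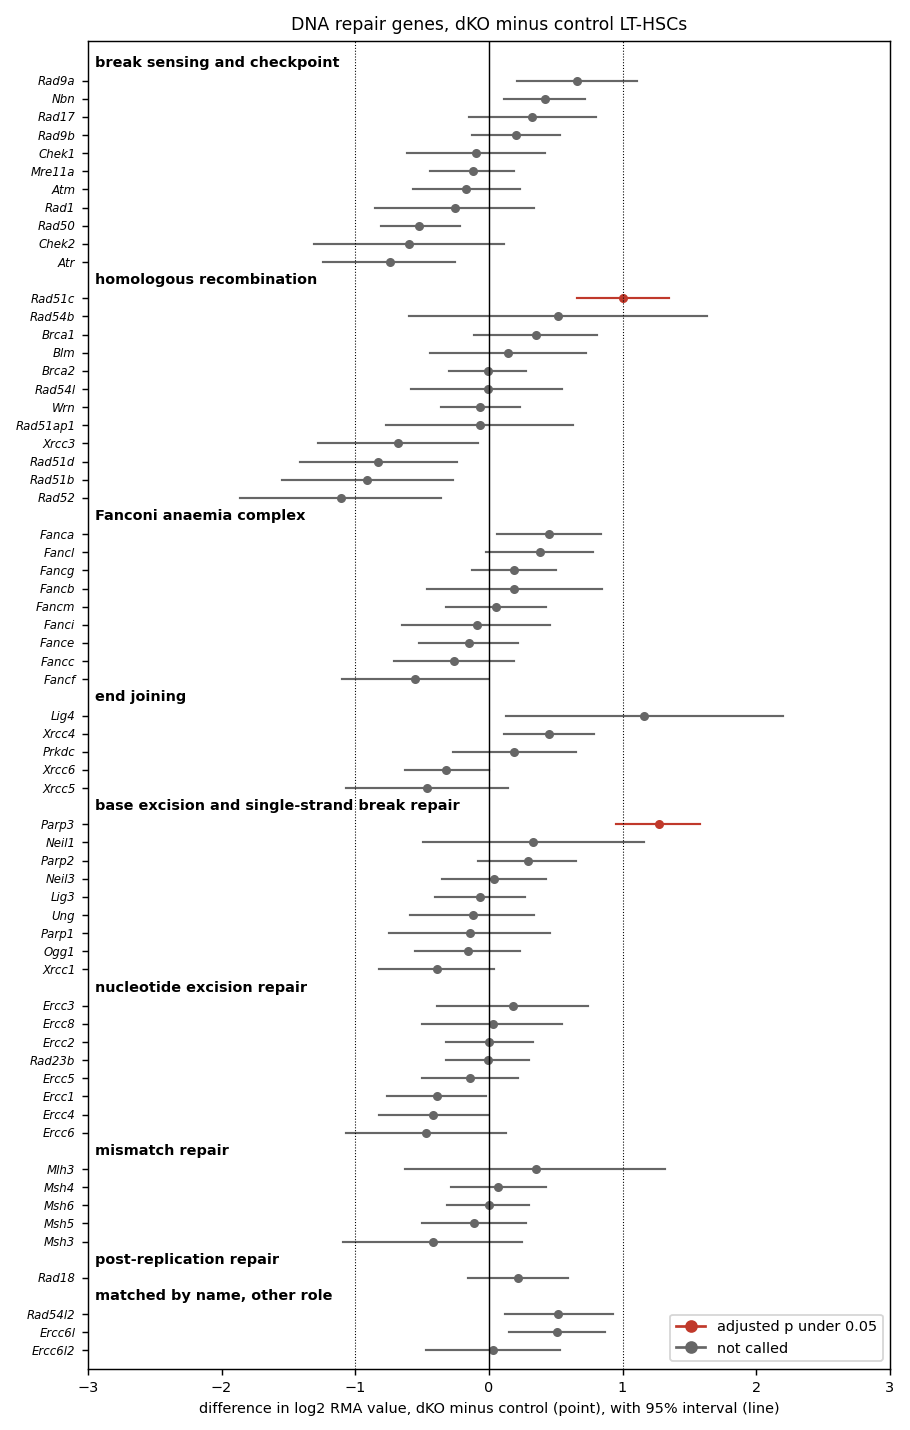
The 63 repair genes by pathway, each with its difference in log2 RMA value, dKO minus control (point), and the 95% interval of that difference (line), with dotted lines at 2-fold. The intervals of Parp3 (0.95 to 1.58) and Rad51c (0.66 to 1.35), in red, are the only ones that passed the test, and most of the others, in grey, cross 0.

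Parp3 had the largest difference of the 63 members. Its representative probe set measured 9.18, 8.93 and 9.08 in the dKO arrays, against 7.82, 7.72 and 7.86 in the control arrays. Every dKO array was above every control array, with a gap several times the spread within either group. The difference was 1.27 ± 0.13 (SE, log2), a 2.41-fold rise (limma adjusted p = 0.0044). A second Parp3 probe set read 7.99, 7.76 and 8.58 in dKO and 6.04, 6.78 and 7.22 in control arrays, and its difference of 1.43 ± 0.34 passed just under the threshold. The dimmest was higher by 0.59 ± 0.19 (adjusted p = 0.118), also without overlap of the groups. The names of these 3 probe sets end in _x_at or _s_at, by which the array's maker marks probes that can match further transcripts, so a share of the signal from related sequences is uncertain.

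Rad51c was the other member that passed. It measured 6.80, 7.16 and 7.05 in the dKO arrays, against 6.0, 5.91 and 6.09 in the control arrays. The groups were again separate, and the difference of 1.0 ± 0.15 (SE, log2) made a 2.0-fold rise (limma adjusted p = 0.0115). The other Rad51c probe set, at 6.02, 7.0 and 6.11 in dKO and 4.91, 5.26 and 3.80 in control arrays, was higher by 1.72 ± 0.42 and missed the threshold (adjusted p = 0.0572). Its lowest control value lay inside the negative control range. For both genes the exact two-sided permutation p over the 20 splits of the arrays was 0.1, the smallest that 3 arrays against 3 allow. Both calls held with any 1 array left out, with limma adjusted p of up to 0.0231 for Parp3 and 0.0461 for Rad51c.

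The promoters of these genes are shown because they are the only members that passed, from 250 bases before to 50 after each annotated start (RefSeq, GRCm38.p6). Capitals mark matches to the sites searched on both strands, the E-box CACGTG that Myc proteins bind and the E2F sites TTTCCCGC, TTTCGCGC, TTTGGCGC and TTTGCCGC. The Parp3 window lies at chr9:106476900-106477199 on the minus strand, and the Rad51c windows at chr11:87404457-87404756 and chr11:87404905-87405204 on the minus strand.
Parp3: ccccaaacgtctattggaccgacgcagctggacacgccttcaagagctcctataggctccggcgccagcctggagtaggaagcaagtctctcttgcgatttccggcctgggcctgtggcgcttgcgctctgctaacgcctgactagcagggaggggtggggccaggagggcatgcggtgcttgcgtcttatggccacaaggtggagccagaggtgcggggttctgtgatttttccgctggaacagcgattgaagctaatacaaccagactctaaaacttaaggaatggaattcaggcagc
Rad51c, first window: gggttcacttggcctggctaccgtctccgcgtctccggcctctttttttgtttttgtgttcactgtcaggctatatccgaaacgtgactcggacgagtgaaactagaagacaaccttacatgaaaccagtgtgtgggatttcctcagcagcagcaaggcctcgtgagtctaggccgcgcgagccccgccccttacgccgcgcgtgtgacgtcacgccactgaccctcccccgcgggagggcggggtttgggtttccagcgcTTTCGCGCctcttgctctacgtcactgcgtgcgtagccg
Rad51c, second window: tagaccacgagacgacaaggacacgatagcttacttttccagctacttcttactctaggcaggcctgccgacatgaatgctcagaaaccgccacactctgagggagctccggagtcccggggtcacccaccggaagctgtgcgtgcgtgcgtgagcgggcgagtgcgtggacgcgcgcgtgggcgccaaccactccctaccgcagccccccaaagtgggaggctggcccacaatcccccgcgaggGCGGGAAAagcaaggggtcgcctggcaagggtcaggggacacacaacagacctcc
Neither gene had CACGTG in these windows. Each Rad51c window held 1 E2F site, TTTCGCGC at base 262 of the first and GCGGGAAA, the reverse complement of TTTCCCGC, at base 246 of the second, counted from the 5′ end as printed. Parp3 had none. Of the 63 members 53 had a promoter in the table, with 60 windows in all. An E2F site was found in 9 of these windows (15.0%), against 3.21% of 18109 windows of genes on the array, and CACGTG in 6 (10%), against 8.72%. Besides Rad51c, the genes with an E2F site were Brca2, Chek2, Fancg, Msh3, Msh5, Msh6 and Xrcc6, with log2 differences between -0.60 (Chek2) and 0.19 (Fancg). Those with CACGTG were Ercc6, Ercc8, Lig3, Parp1, Parp2 and Xrcc5, between -0.47 (Ercc6) and 0.29 (Parp2). None of these 13 genes passed the test.

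Among the 11 genes of break sensing and checkpoint signalling, 0 rose and 0 fell by their representative probe sets (median difference -0.12). Rad50, the ATPase that tethers broken ends, came closest. It measured 7.82, 7.88 and 7.78 in the dKO arrays and 8.27, 8.33 and 8.43 in the control arrays, without overlap, a difference of -0.52 ± 0.13 (SE, log2, adjusted p = 0.0552). Its dimmer probe set fell past the threshold, at 6.01, 6.35 and 5.91 in dKO and 7.20, 6.72 and 7.47 in control arrays (-1.04 ± 0.23, adjusted p = 0.0386). Atr, the kinase that responds to single-stranded DNA at stalled forks, also had its only call on a dimmer probe set. Its representative probe set read 7.22, 7.33 and 7.72 in dKO and 8.33, 8.36 and 7.81 in control arrays (-0.74 ± 0.21, adjusted p = 0.0886). A second Atr probe set fell, with 6.62, 6.83 and 6.38 in dKO and 7.85, 7.46 and 7.41 in control arrays (-0.96 ± 0.18, adjusted p = 0.0265), and the remaining one lay in the negative control range in both groups. With the mean over each gene's probe sets in place of the brightest, both genes were called lower, Atr by 0.77 and Rad50 by 0.78 on the log2 scale.

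The partners of Rad50 had differences of other sizes, none of them called. Nbn, which recruits Atm to the complex, was at 8.42, 8.53 and 8.35 in dKO and 8.10, 7.99 and 7.95 in control arrays, a difference of 0.42 ± 0.13 (adjusted p = 0.113). The nuclease Mre11a differed by -0.12 (adjusted p = 0.671), and its second probe set, of like brightness, by -0.58 without overlap (adjusted p = 0.248). Rad9a, a subunit of the checkpoint clamp that activates Atr, was 0.66 ± 0.19 higher without overlap (adjusted p = 0.0931), and its clamp partner Rad1 differed by -0.25 (adjusted p = 0.634). The kinase Atm differed by -0.17 and Chek1 by -0.10. Chek2 differed by -0.60, but its dKO values of 6.72, 6.81 and 7.64 overlapped control values of 8.11, 7.51 and 7.36 (adjusted p = 0.31).

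**Figure D2:**
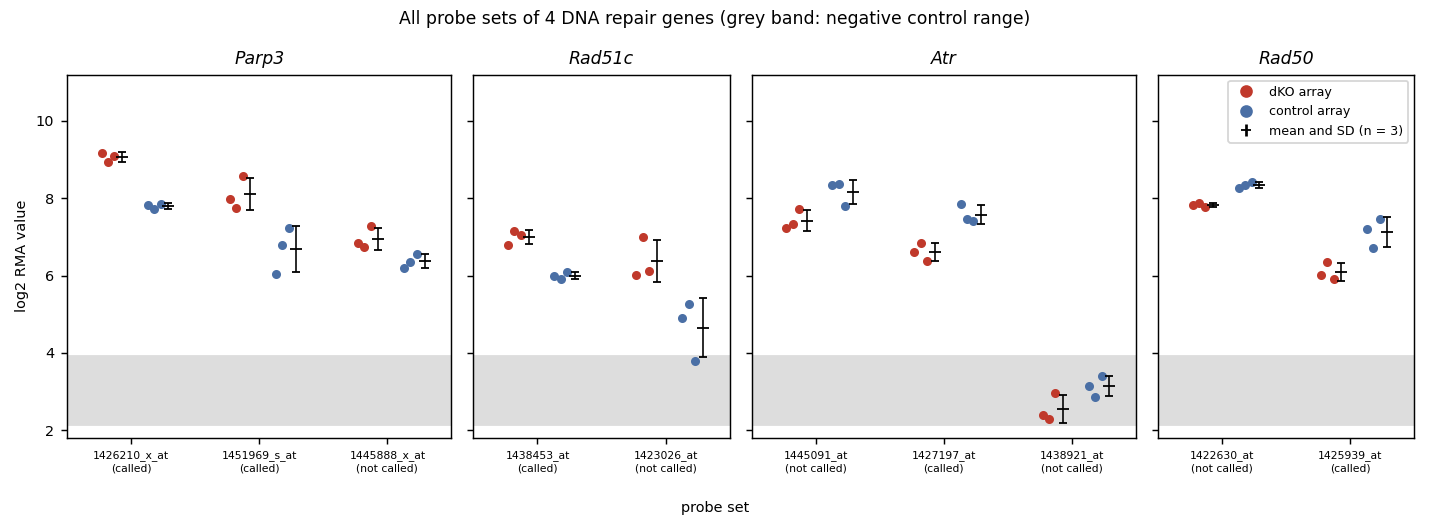
Log2 RMA values of all probe sets of Parp3, Rad51c, Atr and Rad50 in each array, with dKO (red) left of control (blue), means and SD (n = 3) in black and the negative control range in grey. Called probe sets lie higher in dKO for Parp3 (difference 1.27 for the brightest) and Rad51c (1.0), and lower for Atr (-0.96) and Rad50 (-1.04), where the called probe set is not the brightest of its gene.

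The 12 homologous recombination genes differed in both directions. Rad51c alone was called, and the difference ran from 1.0 to -1.11 with a median of -0.04. Rad51c forms complexes with Rad51b, Rad51d and Xrcc3, and these 3 had differences of the opposite sign that did not pass. Rad51b measured 4.59, 4.55 and 4.66 in dKO and 6.15, 5.29 and 5.10 in control arrays (-0.91 ± 0.27 SE, adjusted p = 0.1). Rad51d measured 6.80, 6.89 and 7.60 in dKO and 7.67, 7.89 and 8.21 in control arrays (-0.83 ± 0.25, adjusted p = 0.106). Both were without overlap, while Xrcc3 overlapped, at 6.90, 7.86 and 7.13 in dKO and 8.12, 8.01 and 7.81 in control arrays (-0.68 ± 0.26, adjusted p = 0.178). The second Rad51b probe set differed by 0.32, and the other 3 of Rad51d by -0.65 to -0.22. Leaving out 1 array changed a call among them: Xrcc3 was called lower without dKO replicate 2, and Rad51d without dKO replicate 3. Whether the Rad51c difference is unlike that of these partners was not tested.

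Rad52, which anneals single strands, had the most negative difference of any member. It measured 8.03, 8.23 and 7.63 in the dKO arrays, against 8.81, 8.64 and 9.78 in the control arrays, so the groups did not overlap but control replicate 3 stood well above the other controls. The difference was -1.11 ± 0.32 (SE, log2, adjusted p = 0.0921), and the dimmer Rad52 probe set differed by -0.41 (adjusted p = 0.466). Brca2, a mediator of recombination, was at 7.77 ± 0.08 in dKO and 7.79 ± 0.01 in control arrays (SD, n = 3 each), with an interval of -0.30 to 0.28. The helicase Wrn (-0.07) and the translocase Rad54l (-0.01) were also close to 0. Brca1, the ubiquitin ligase that opens the way to recombination, was 0.35 ± 0.19 higher by its brightest probe set (adjusted p = 0.366). Of its other 3, chosen for mention after their values were seen, 2 were higher by 1.17 and 1.12 without overlap, yet did not pass (adjusted p = 0.15 and 0.179).

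**Figure D3:**
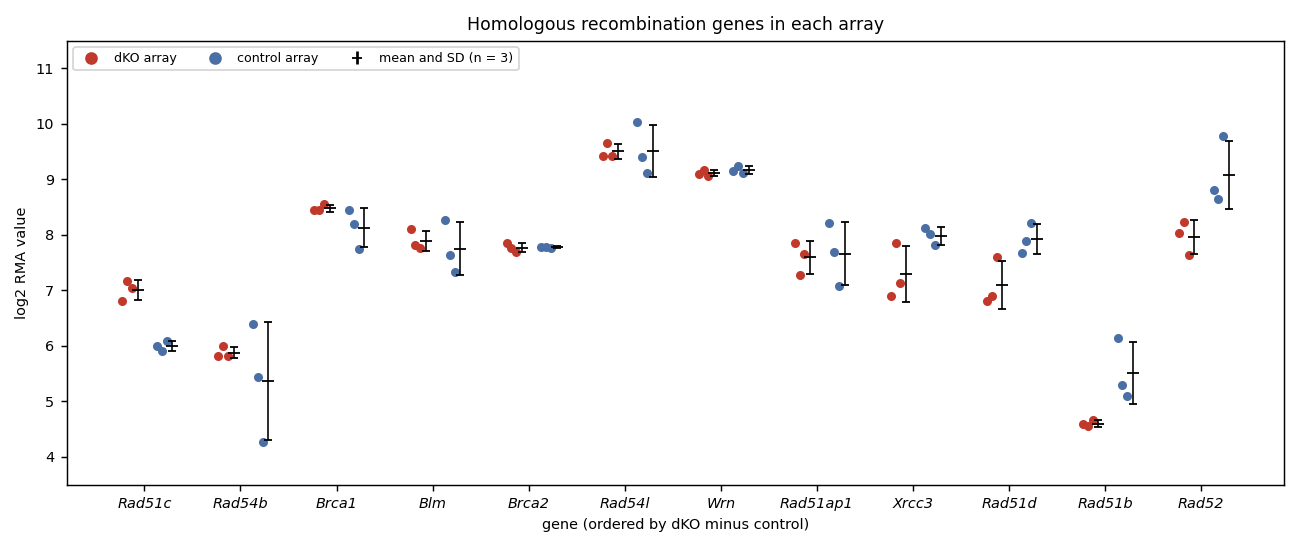
Log2 RMA values of the 12 homologous recombination genes in each array, with dKO (red) left of control (blue) and means and SD (n = 3) in black, ordered by difference. The groups separate for Rad51c, Rad51b, Rad51d and Rad52, and the control arrays are spread over 2.12 log2 units for Rad54b (6.39, 5.43 and 4.27) where the dKO arrays lie between 5.82 and 6.0.

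The 9 Fanconi anaemia genes held a median difference of 0.05, with 0 called. Fanca, of the core complex, measured 7.12, 7.25 and 7.48 in dKO and 6.66, 6.78 and 7.04 in control arrays (0.45 ± 0.17 SE, adjusted p = 0.168), without overlap. Fancf, the adaptor of that complex, measured 7.03, 7.17 and 7.36 in dKO and 7.92, 7.25 and 8.05 in control arrays, an overlap by 1 array of each group (-0.55 ± 0.23, adjusted p = 0.221). The remaining 7 lay between -0.26 (Fancc) and 0.38 (Fancl, the ubiquitin ligase subunit). For 8 of the 9 the interval lay within 2-fold, Fancf being the exception.

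End joining genes were likewise without a call, 5 of 5. Parp3, although it favours end joining, was counted under base excision and single-strand break repair, so the counts of both groups depend on that placing. Xrcc4, the scaffold of the ligase complex, measured 7.98, 7.99 and 8.18 in dKO and 7.44, 7.75 and 7.59 in control arrays (0.45 ± 0.14 SE, adjusted p = 0.12), without overlap. Its partner Lig4, which seals the ends, measured 5.23, 5.81 and 6.3 in dKO and 5.47, 3.82 and 4.56 in control arrays (1.16 ± 0.44, adjusted p = 0.183), with an overlap and with control replicate 2 inside the negative control range. The Ku subunits that bind the ends had negative differences, -0.32 for Xrcc6 without overlap (adjusted p = 0.232) and -0.46 for Xrcc5 with overlap (adjusted p = 0.359). The kinase Prkdc differed by 0.19 (adjusted p = 0.645).

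In base excision and single-strand break repair, Parp3 was the 1 gene of 9 that passed, and the median difference was -0.07. The scaffold Xrcc1 measured 7.50, 8.12 and 7.92 in dKO and 8.23, 8.17 and 8.32 in control arrays, narrowly without overlap (-0.39 ± 0.18 SE, adjusted p = 0.274). The related polymerases of ADP-ribose did not pass the test. Parp2 differed by 0.29 ± 0.16 (adjusted p = 0.354) and Parp1, the main sensor of strand breaks, by -0.14 ± 0.26 (adjusted p = 0.818). The other 3 Parp1 probe sets, picked out after their values were seen, read -0.36, -0.51 and -1.08, each without overlap and none past the threshold (lowest adjusted p = 0.0607). The DNA glycosylases Ogg1, Ung, Neil1 and Neil3 lay between -0.16 and 0.33.

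Nucleotide excision repair had 0 of 8 genes called (median -0.07). The nuclease partners Ercc1 and Ercc4 were both without overlap, with differences of -0.39 ± 0.16 and -0.42 ± 0.17 (SE, log2, adjusted p = 0.213 and 0.219). Ercc1 read 8.05, 7.70 and 8.12 in dKO and 8.46, 8.31 and 8.28 in control arrays. Ercc4 read 6.80, 6.60 and 6.99 in dKO and 7.02, 7.45 and 7.16 in control arrays, but another of its probe sets differed by 0.52 (adjusted p = 0.283). By representative probe sets, the helicase Ercc2 of the general factor TFIIH and Rad23b, a partner of the damage sensor, were within 0.01 of 0, at 0.00 ± 0.14 and -0.01 ± 0.13. Dimmer Rad23b probe sets differed by -0.82 and 0.23, each without overlap (limma adjusted p = 0.161 and 0.395), and by -0.19 with overlap.

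By representative probe sets, mismatch repair showed 0 of 5 genes called and 0 with separate groups, against 8.05% and 30.0% of all genes. Msh6, which recognises single mispairs, was at 10.61 ± 0.11 in dKO and 10.61 ± 0.05 in control arrays (SD, n = 3 each). Msh3 measured 6.52, 6.89 and 7.50 in dKO and 7.78, 7.14 and 7.26 in control arrays (-0.42 ± 0.29 SE, adjusted p = 0.461). A dimmer Msh3 probe set differed by -0.74 without overlap (limma adjusted p = 0.144), and the remaining ones by 0.25 and 0.21 with overlap. Mlh3 measured 7.29, 6.98 and 7.38 in dKO and 7.56, 7.20 and 5.85 in control arrays (0.35 ± 0.41, adjusted p = 0.705). Control replicate 3 set that sign, which was negative without it, at -0.16. Msh4, which acts in meiosis, was not above the negative control range in either group. Rad18, the ubiquitin ligase of post-replication repair, differed by 0.22 ± 0.16 (adjusted p = 0.499), with 8.55, 8.63 and 8.73 in dKO and 8.55, 8.54 and 8.15 in control arrays.

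A further 3 genes matched the rule by name and were grouped apart from the pathways above. Ercc6l, a translocase of anaphase DNA threads, measured 8.55, 8.44 and 8.71 in dKO and 7.85, 8.15 and 8.17 in control arrays (0.51 ± 0.15 SE, adjusted p = 0.102). Rad54l2, an ATPase of the SNF2 family, measured 7.35, 7.21 and 7.66 in dKO and 6.79, 7.09 and 6.78 in control arrays (0.52 ± 0.17, adjusted p = 0.131). Both were without overlap, and Ercc6l2 differed by 0.03 by its brightest probe set. Its dimmer probe sets differed by -0.71 to -0.34, all with overlap and without a call.

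Agreement between probe sets of a gene was partial. Of the 43 members with several probe sets, 26 had all differences of 1 sign and 17 had both signs. Of all 143 probe sets, 5 passed the test (3.5%), against 7.45% of 34945 single-gene probe sets (4.08% higher and 3.37% lower). They were 2 of Parp3 and 1 of Rad51c, higher, and 1 each of Atr and Rad50, lower. No member had called probe sets in both directions.

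Other genes of the same pathways, outside the naming rule, were taken from lists by role. Of 105 measured, 8 rose and 1 fell by the representative probe set, or 8.57%, close to the 8.05% of all genes. Over all 230 probe sets of these genes the calls were about even, with 13 higher in 12 genes and 12 lower in 7 genes, or 10.9% against 7.45% of single-gene probe sets. Mad2l2, a subunit of the translesion polymerase zeta, measured 9.17, 9.02 and 8.92 in dKO and 8.02, 7.72 and 7.52 in control arrays, a 2.43-fold rise (log2 difference 1.28 ± 0.17 SE, adjusted p = 0.00851). In homologous recombination, 3 of 21 rose and 0 fell, or 14.3%, against the same 8.05% of all genes. Eme1 and Mus81 form a nuclease that cuts branched DNA, and rose by 1.38 ± 0.24 and 1.09 ± 0.24 (adjusted p = 0.0203 and 0.0389). The dimmer Mus81 probe set differed by 0.52 with overlap and did not pass (limma adjusted p = 0.238). Eme1 read 8.24, 8.40 and 8.44 in dKO and 6.67, 7.53 and 6.73 in control arrays, and Mus81 read 8.30, 7.79 and 8.27 in dKO and 7.19, 7.31 and 6.61 in control arrays. Psmc3ip, known for its part in meiotic recombination, rose by 0.86 ± 0.19 (adjusted p = 0.0396).

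The other partner groups had at most 1 gene called by its representative probe set. Faap24, which binds Fancm, rose by 1.30 ± 0.29 (1 of 8 Fanconi partners, adjusted p = 0.0444), and Brcc3, a deubiquitinase of a Brca1 complex, by 0.75 ± 0.14 (1 of 18 break-sensing partners, adjusted p = 0.0223). The flap nuclease Fen1 (0.80 ± 0.19, 1 of 15 base excision partners) and the sliding clamp Pcna (0.60 ± 0.13, 1 of 9 mismatch partners) also serve replication. Ddb2, a sensor of ultraviolet damage, was the 1 gene that fell by its representative probe set, at 9.18, 9.51 and 8.82 in dKO and 9.90, 10.02 and 10.10 in control arrays (-0.84 ± 0.19, 1 of 15 excision partners, adjusted p = 0.0488), and its second probe set fell too (-0.89, adjusted p = 0.031). Dimmer probe sets fell in a further 6 partner genes, named after their values were seen. They were 3 of Cdk7, the kinase of TFIIH (-1.56 to -1.07), 2 of Ube2b, the ubiquitin-conjugating enzyme that works with Rad18 (-1.28 and -1.14), 2 of Shprh, and 1 each of Aplf (-1.05), Wdr48 and Xpa. The brightest probe set did not pass for any of these 6, with differences of -0.63 (Wdr48) to 0.01 (Cdk7). In the other direction, a dimmer probe set rose past the threshold for Clspn (0.85), Rpa2 (1.14), Smc5 (0.73) and Ube2a (0.89), likewise named after their values were seen. Their brightest probe sets did not pass either. By representative probe sets, none of the 7 end joining partners passed, Dclre1b having the smallest p (0.38 ± 0.13, adjusted p = 0.137). Representative probe sets of Mus81, Psmc3ip, Faap24, Fen1 and Ddb2 have names ending in _x_at or _s_at. The uncertainty given for Parp3 holds for these probe sets too. With 1 array left out, Mad2l2 kept its call each time, and 1 to 3 partner genes rose. Under median centring of the arrays, 12 partner genes rose and 0 fell, and with the replicate number as a block 3 rose and 0 fell.

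Repair genes used during replication are known to follow the cell cycle, so cell cycle lists were read beside them. Of 24 S phase genes, 4 rose (Rrm2, Mcm2, Mcm5 and Slbp) and 0 fell, or 16.7%, against 8.05% of all genes called in either direction. Their median deviation from each gene's mean was 0.24, 0.21 and 0.23 in the dKO arrays and -0.16, -0.18 and -0.33 in the control arrays. Their summed linear signal was 26352 to 27206 in dKO and 18010 to 20582 in control arrays. Of 21 mitosis genes, 0 rose and 0 fell, and their sums overlapped, at 12046 to 13184 in dKO and 12321 to 14324 in control arrays. The 63 repair genes had median deviations of 0.00, 0.02 and 0.03 in dKO and 0.10, 0.02 and -0.09 in control arrays, which overlap. The recombination partners lay at 0.19, 0.18 and 0.10 in dKO and 0.02, -0.13 and -0.35 in control arrays, so that the groups were separate as for S phase genes. The Fanconi partners (0.11 to 0.20 in dKO and -0.26 to -0.01 in control arrays), the break-sensing partners (0.05 to 0.13 in dKO and -0.25 to 0.03 in control arrays) and the mismatch partners (0.01 to 0.10 in dKO and -0.21 to -0.02 in control arrays) were separate too. The groups overlapped for the end joining partners, at 0.01 to 0.14 in dKO and -0.09 to 0.05 in control arrays. Base excision partners overlapped as well (-0.02 to 0.04 in dKO and -0.05 to 0.05 in control arrays). So did those of nucleotide excision (-0.10 to 0.07 in dKO and -0.07 to 0.09 in control arrays). Post-replication partners also overlapped (-0.03 to 0.25 in dKO and -0.13 to -0.01 in control arrays). The part of the cell cycle in the repair gene results was not tested.

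The control arrays were spread more widely than the dKO arrays for 39 of the 63 members (61.9%), against 51.5% of all genes, a difference in spread that was not tested. This held for 9 of 9 Fanconi genes, 8 of 12 recombination genes and 3 of 5 mismatch repair genes. It also held for 5 of 9 base excision and 5 of 8 nucleotide excision genes, but for only 5 of 11 break-sensing and 2 of 5 end joining genes. The median SD over 3 arrays was 0.16 in dKO and 0.41 in control for the 12 recombination genes, where all genes had 0.18 in dKO and 0.19 in control. The median deviations of these 12 genes were 0.01, 0.01 and -0.07 in dKO and 0.37, 0.04 and -0.21 in control arrays, with control replicate 1 high and control replicate 3 low. Control replicate 3 was the lowest control for 35 of the 63 members (55.6%), against 34.5% of all genes, and for 9 of the 12 recombination genes. The SD was 0.10 in dKO and 1.06 in control arrays for Rad54b, and 0.18 in dKO and 0.48 in control arrays for the helicase Blm. It ran the other way for Xrcc3, at 0.50 in dKO and 0.16 in control arrays, and for Rad51d, at 0.43 in dKO and 0.27 in control arrays, as well as for Rad51c and Brca2. Without control replicate 3, Parp3 and Rad51c remained the called members.

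**Figure D4:**
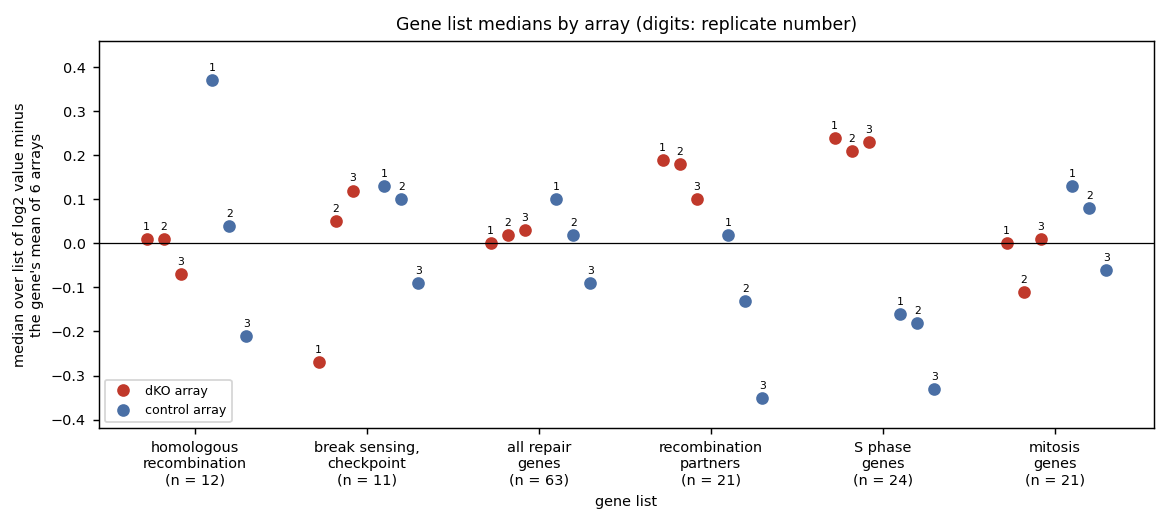
Median over each gene list of the log2 value minus the gene's mean of 6 arrays, 1 point per array, with dKO (red) left of control (blue) and digits for the replicate number. The S phase genes separate the groups (0.21 to 0.24 in dKO, -0.33 to -0.16 in control), whereas the 12 recombination genes overlap, with control arrays from -0.21 to 0.37.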

How the data were processed

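Total RNA was extracted with Trizol and amplified in 2 rounds before biotin labelling, per the labels' protocols. Such amplification can distort differences between transcripts. The authors deposited log2 RMA expression values per probe set: RMA is listed, with no version, per the submitters' processing notes. The log2 scale was read from the values (1.49 to 13.85), and array medians were 5.90 to 5.97. RMA scales arrays to each other, so changes in total RNA cannot be seen, and it compresses dim signals. Sources used here give no other settings and no genome build.

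The 45037 non-control probe sets were fitted with limma 3.58.1 (R 4.3.3; lmFit and eBayes), dKO minus control over 6 arrays, and p-values were adjusted by Benjamini-Hochberg over all of them (threshold 0.05). The test was checked on simulated data. Intervals are 95% intervals from limma's standard errors. Arrays hold separate pools of mice, so p-values measure the spread between pools. A platform annotation named 34945 probe sets by 1 gene symbol. Another 932 carried several symbols and 9160 none, and these entered the test without being named. All 63 members had an Entrez identifier in the RefSeq gene table, with 0 symbols changed. Equal replicate numbers did not pair the arrays: correlations of deviations from group means were -0.016, 0.002 and 0.013, so no block was used.

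The members and lists were chosen with earlier results of these data known. Named genes were the deleted genes, called members, the 2 members of each pathway with the smallest p, and called partner genes or, where none was called, the 1 with the smallest p. Other members, such as Brca1, Brca2 and Parp1, were named as examples after their values were seen. Alternatives were other scalings, a filter on low values, a trended robust prior, array weights, probe set means, a replicate block and leaving out each array.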

Additional observations from a re-analysis of the deposited data

How the results depend on the processing

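Parp3 and Rad51c were called higher, and no other member was, under all 14 alternatives. The count of members lower in dKO, 0 as reported, was 1 with the filter on low values, 1 with the trended robust prior and 1 with p adjusted over 1 probe set a gene (an alternative chosen after seeing the data), each time Rad50. It was 2 with the mean over a gene's probe sets (Atr and Rad50), and 0 to 1 with 1 array left out (Xrcc3 without dKO replicate 2, Rad51d without dKO replicate 3). Mlh3 ranged from -0.16 (without control replicate 3) to 0.69 with 1 array left out. The median over members stayed between -0.06 and 0.05. Over the whole array 3146 probe sets were called, against 1530 with the replicate block and 1338 to 1674 with 1 array left out. Of 18193 genes by 1 probe set each, 1464 were called, against 1580 with p adjusted over these probe sets alone. Partner genes higher numbered 8, and 15 with the trended robust prior, 3 with the replicate block and 1 to 3 with 1 array left out. Partner genes lower numbered 1, and 0 with median centring, 0 with the replicate block, 4 with the mean over probe sets and 0 to 1 with 1 array left out. The causes of these shifts were not tested, and the leave-outs also had fewer arrays. Higher calls made up 8 of 9 partner calls as deposited and 12 of 12 with median centring. The replicate block changed no call of a member. Of the partner genes, Eme1, Faap24, Fen1, Mus81, Pcna, Psmc3ip, Brcc3 and Ddb2 each lost their call without some single array (adjusted p up to 0.141 over all alternatives). Mus81 and Pcna lost it whichever array was left out, with limma adjusted p of 0.0546 to 0.121 and 0.075 to 0.102. Both also lost it with the replicate block. Signal over background limits Msh4, which lay in the negative control range, and the control values of Lig4.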
